A study of Mus musculus with 8 samples.

Results

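The genes described here encode the kinetochore, which joins chromosomes to the mitotic spindle, and the spindle checkpoint, which watches that join. They were 37 genes named by function, and all 37 were measured, out of 18193 genes on the array. Where several probe sets were annotated to a gene alone, the one brightest on average across the 8 arrays was used. Expression was measured on an Affymetrix mouse array in bone marrow cells sorted for Cd11b, an integrin subunit of granulocytes and monocytes. The 4 experimental samples had the genotype Mxcre;E2F1-/-2-/-3f/f, that is, no E2f1, no E2f2, floxed E2f3 and the Mx-Cre transgene. The 4 control samples had the genotype E2F1-/-2+/+3f/f, that is, no E2f1, intact E2f2, floxed E2f3 and no Cre. All mice had a mixed FVB and C57BL6 background, were 8 weeks old and were injected 5 times, every other day, with 250 µg of pIpC, an RNA duplex that triggers interferon, and were killed 24 h after the last dose. Loss of E2f1 and exposure to pIpC were thus shared by both groups, and the presence of Cre cannot be told apart from the loss of E2f2 and the targeting of E2f3. The Mx promoter answers to interferon in many cell types, so Cre activity was not limited to the sorted cells.

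Kinetochores assemble in layers on the centromere. An inner layer, the constitutive centromere-associated network, sits on nucleosomes that hold the histone variant CENP-A. An outer layer of the KNL1, MIS12 and NDC80 complexes binds spindle microtubules, and a corona of motor and adaptor proteins forms outside it. Checkpoint proteins gather on kinetochores that lack microtubules and hold back anaphase through the anaphase-promoting complex. In bone marrow these genes are expressed by dividing precursors, whereas mature neutrophils have left the cell cycle.

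Values are log2 expression values after RMA (robust multi-array average). The array medians lay between 5.01 and 5.04. RMA includes quantile normalization, which draws the medians together, so they cannot show whether an array stands apart. Differences are experimental minus control, fitted with limma across 45037 probe sets, with Benjamini-Hochberg adjustment over all of them and a threshold of adjusted p 0.05. Since no label states that each sample came from its own mouse, the p-values reflect sample-to-sample spread that could be partly technical. Of the targeted genes, E2f2 read 7.06, 7.40, 7.11 and 7.47 in experimental replicates 1 to 4 at probe set 1455790_at, against 7.91, 7.82, 7.76 and 8.19 in control replicates 1 to 4. It was lower there without overlap (difference -0.66 ± 0.13 SE, limma adjusted p = 0.0351). At the brighter E2f2 probe set, 1436434_at, the groups did not overlap either, but the difference of -0.55 ± 0.16 (SE) did not pass (limma adjusted p = 0.107). E2f1 and E2f3 did not pass at any probe set, and E2f3 at 1434564_at had every experimental array above every control (0.29 ± 0.11 SE, limma adjusted p = 0.201), although E2f3 was the gene targeted for deletion. Where those probe sets lie relative to the deleted parts was not analysed here, so they check the labels only in part. Itgam, the gene of the sort marker, had a difference of -0.04 ± 0.13 (SE). In cells sorted in bulk, fewer dividing cells and less RNA per dividing cell cannot be told apart.

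The kinetochore genes moved in both directions. Of the 37, 9 fell and 3 rose in the experimental samples, and 25 did not pass. The falls were Spc25, Cenpf, Ndc80, Nuf2, Cenpl, Cenpc1, Sgo1, Knl1 and Cenpe, with differences of -1.44 to -0.50. The rises were Cenph, Zwint and Cenpo, with differences of 0.48 to 0.93. Among all 18193 genes 1.95% fell and 1.53% rose. Among the 7973 genes at least as bright as the dimmest kinetochore gene, 3.12% fell and 2.43% rose. The median difference of the 37 genes was 0.02, against 0.01 for all genes. The experimental arrays all lay below the controls for 10 of the 37 genes and all above for 7, while 6.79% and 5.62% of all genes were separated in these directions. The number that fell was 4 without experimental replicate 1 or 4 or control replicate 1, 2 or 4, and 5 without control replicate 3. The number that rose was 1 without experimental replicate 1 or control replicate 2 or 4, and it was 2 when experimental replicate 3 or 4, or control replicate 1 or 3, was left out. Spc25, Ndc80, Nuf2, Cenpf and Cenph passed with any 1 of the 8 arrays left out. With sex, read from the arrays, as a block, Cenpl, Cenpc1, Sgo1, Knl1, Cenpe and Cenpo lost the call (limma adjusted p = 0.0519 to 0.0977) and Kntc1 gained it. With the probe sets of each gene averaged, Zwint and Cenpo lost the call, and Bub3 and Kntc1 gained it. When the most variable probe set of each gene was used, Cenpf (limma adjusted p = 0.0529), Zwint (0.0545) and Cenpe (0.110) lost the call and Bub3 gained it. Under a trended and robust variance in limma, Knl1 (adjusted p = 0.0701) and Cenpe (0.0544) lost the call.

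**Figure D1:**
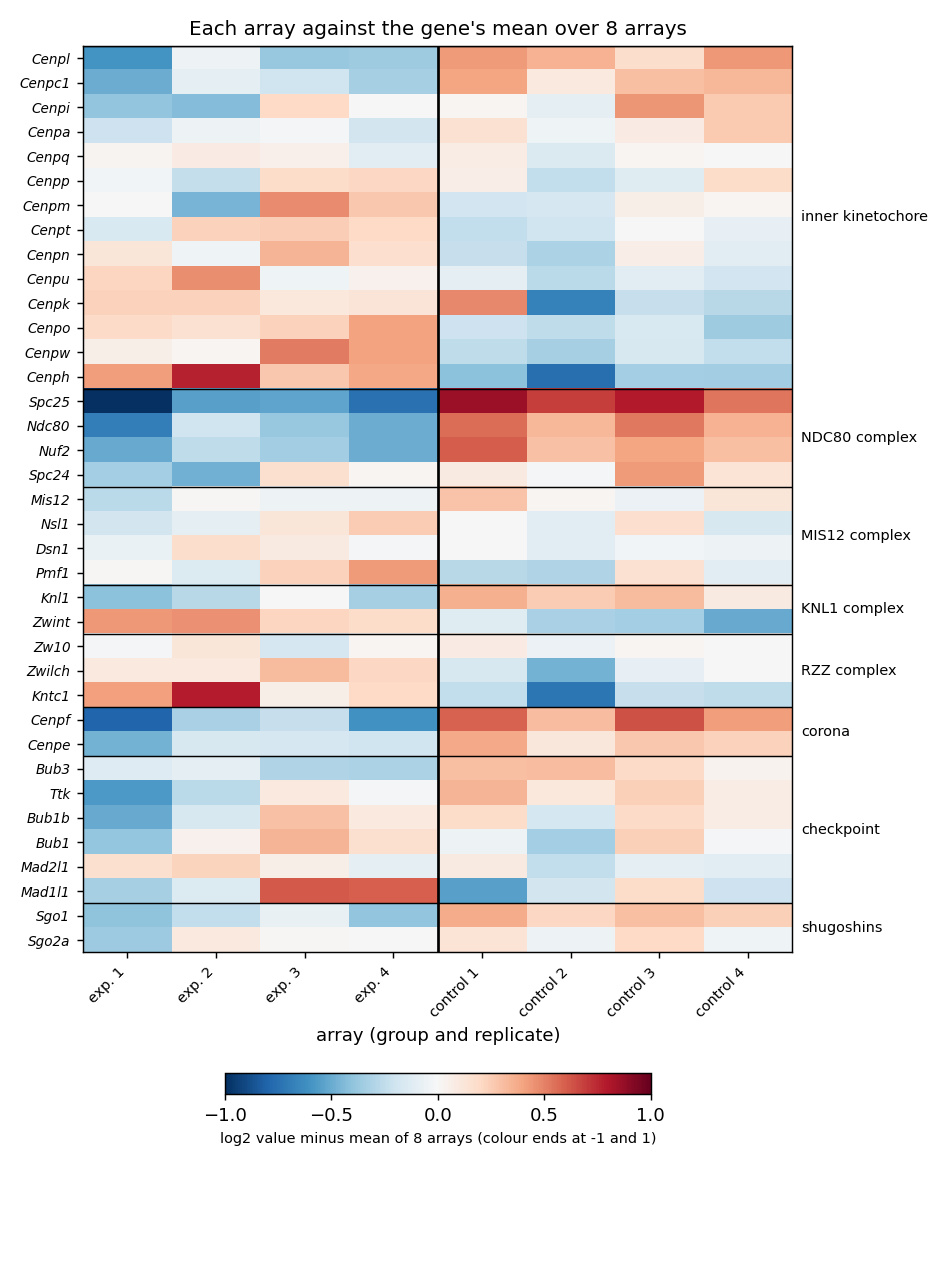
Heat map of the 37 genes (rows, grouped by complex) in the 8 arrays (columns, experimental left and control right of the line), coloured by the log2 value minus the mean of all 8 arrays. Spc25, Ndc80, Nuf2, Cenpf and Cenpe are blue in every experimental array and red in every control, Cenph, Zwint and Kntc1 show the opposite, and the MIS12 complex has no common pattern.

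The NDC80 complex, the main microtubule coupler of the outer kinetochore, was lower in the experimental samples. Of its 4 subunits 3 fell and the fourth had a negative difference. The mean level of the 4 genes was 7.54, 7.81, 7.91 and 7.75 in experimental replicates 1 to 4, against 8.71, 8.51, 8.72 and 8.51 in control replicates 1 to 4. Every experimental array lay below every control.

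Spc25, a subunit that anchors the complex to the inner side of the kinetochore, had 7.72, 8.23, 8.24 and 8.02 in the experimental arrays, against 9.63, 9.47, 9.56 and 9.30 in the controls. The difference was -1.44 ± 0.13 (SE, limma adjusted p = 0.0019), with 36.9% of the control level left, the largest of the 37 genes at the brightest probe set of each. The second probe set of Spc25, 1453815_at, was also lower in every experimental array but did not pass (-0.47 ± 0.13 SE, limma adjusted p = 0.0902), and with both averaged Spc25 differed by -0.95, against -0.97 for Cenpf. Ndc80, the subunit that contacts the microtubule, had 6.89, 7.38, 7.20 and 7.08 in the experimental arrays, against 8.14, 7.91, 8.11 and 7.92 in the controls. It fell by 0.88 on the log2 scale, to 54.3% of the control level (SE 0.12, limma adjusted p = 0.00807). Nuf2, the partner of Ndc80 at the microtubule end, had 8.00, 8.25, 8.16 and 8.01 in the experimental arrays, against 9.12, 8.80, 8.90 and 8.81 in the controls. Its difference was -0.80 ± 0.11 (SE, limma adjusted p = 0.00765), and as for Spc25 and Ndc80 the groups were separated by a gap wider than the spread within either. Spc24, the partner of Spc25, read 7.72 ± 0.30 in the experimental arrays and 8.04 ± 0.19 in the controls (SD, n = 4 each). The groups overlapped and the difference of -0.32 ± 0.16 (SE) did not pass.

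In the KNL1 complex, the platform on which checkpoint proteins dock, the 2 subunits went opposite ways. Knl1, the scaffold, had 6.92, 7.05, 7.33 and 7.00 in the experimental arrays, against 7.69, 7.58, 7.65 and 7.42 in the controls. It fell by 0.51 on the log2 scale (SE 0.11, limma adjusted p = 0.0476), to 70.2% of the control level. A second probe set of Knl1, 1438833_at, fell by 1.12 (limma adjusted p = 0.00619). At the brighter probe set, leaving out any array but experimental replicate 3 ended the call for Knl1 (adjusted p = 0.0284 to 0.131). Zwint, which binds the scaffold and recruits the RZZ complex, had 9.97, 10.00, 9.76 and 9.72 in the experimental arrays, against 9.42, 9.21, 9.20 and 9.03 in the controls. It rose 1.56-fold, a difference of 0.65 ± 0.11 (SE, limma adjusted p = 0.0203), with every experimental array above every control. Zwint passed in 4 of the 8 fits without 1 array, and not without experimental replicate 1 or control replicate 2, 3 or 4 (adjusted p = 0.0316 to 0.0653). With its 7 probe sets averaged the difference was 0.33 and missed the threshold (limma adjusted p = 0.0614).

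The MIS12 complex, the bridge between the inner and outer layers, had no subunit past the threshold. Pmf1, its subunit with the highest mean, had 8.56, 8.41, 8.78 and 8.98 in the experimental arrays, against 8.28, 8.25, 8.71 and 8.45 in the controls. These values overlapped, and the difference was 0.26 ± 0.15 (SE). Mis12 (-0.18 ± 0.11), Dsn1 (0.09 ± 0.09) and Nsl1 (0.05 ± 0.12) also overlapped between the groups.

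**Figure D2:**
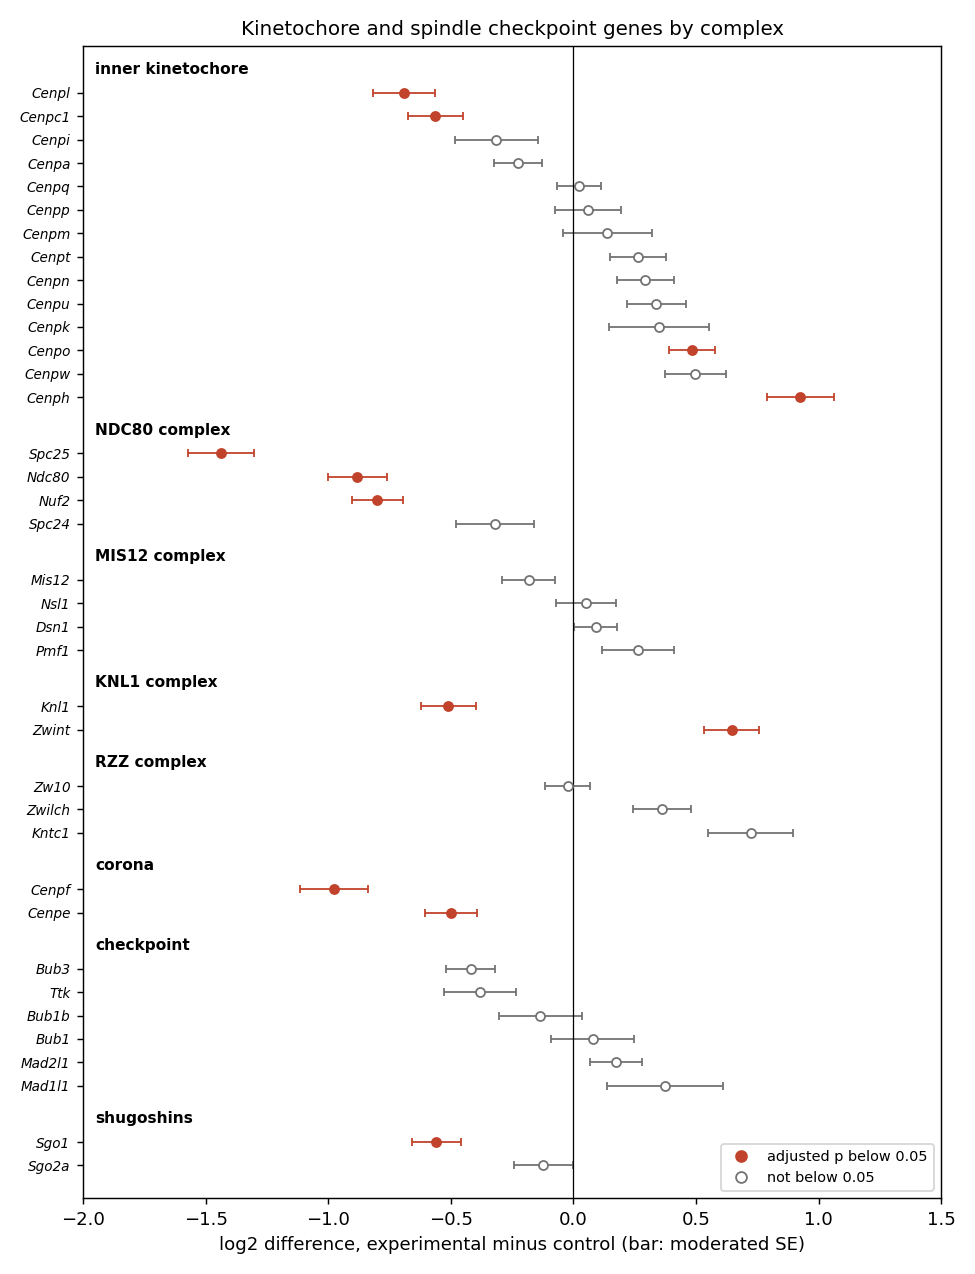
Log2 difference, experimental minus control, of each of the 37 genes with its moderated standard error, grouped by complex. Filled red points passed adjusted p 0.05: 9 lie left of 0, among them 3 of 4 NDC80 subunits, and 3 lie right of 0, while no MIS12, RZZ or checkpoint gene is filled.

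Both genes of the corona fell. Cenpf, a large coiled-coil protein that recruits dynein regulators and accumulates towards mitosis, had 7.90, 8.37, 8.47 and 8.09 in the experimental arrays, against 9.29, 9.01, 9.34 and 9.11 in the controls. Its difference was -0.98 ± 0.14 (SE, limma adjusted p = 0.00985), or 50.8% of the control level, with no overlap. Cenpe, a kinesin that moves chromosomes to the spindle equator, had 8.01, 8.32, 8.31 and 8.29 in the experimental arrays, against 8.86, 8.60, 8.76 and 8.72 in the controls. It fell by 0.50 on the log2 scale (SE 0.10, limma adjusted p = 0.0387), and lost the call with replicate number as a block (adjusted p = 0.0540). Leaving out any array but experimental replicate 2 also ended the call (adjusted p = 0.0404 to 0.115).

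The RZZ complex, which builds the corona and brings dynein and the checkpoint to the kinetochore, had no gene past the threshold. Kntc1, which encodes its scaffold ROD, had 8.84, 9.21, 8.48 and 8.63 in the experimental arrays, against 8.18, 7.70, 8.20 and 8.17 in the controls. The groups did not overlap, yet the difference of 0.72 ± 0.17 (SE) missed the threshold (limma adjusted p = 0.0624). Control replicate 2 lay low for Kntc1, and the difference for Kntc1 came to 1.08 in replicates 1 and 2 but 0.37 in replicates 3 and 4. Zwilch was likewise separated between the groups, with a difference of 0.36 ± 0.12 (SE, limma adjusted p = 0.150), and Zw10 had -0.02 ± 0.09.

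**Figure D3:**
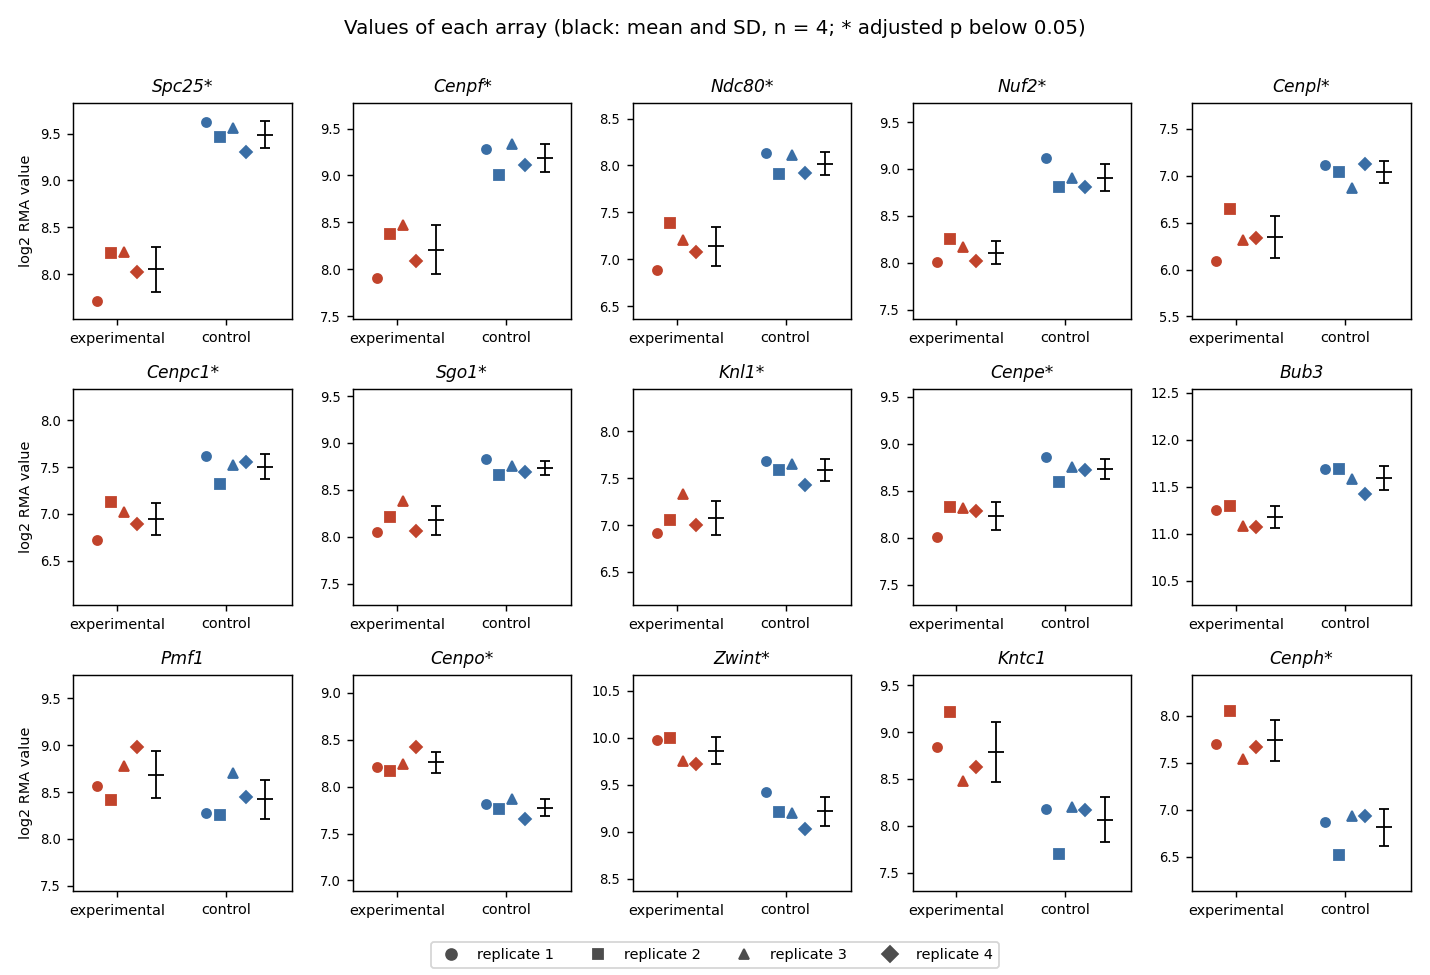
Log2 values of each array (symbols mark replicates) for the 12 genes that passed and for Bub3, Pmf1 and Kntc1, ordered by difference, experimental left and control right, with mean and SD in black. Each panel spans the same number of log2 units, and only Pmf1 has overlapping groups.

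The inner kinetochore was mixed. Of 14 genes, 2 fell, 2 rose and 10 did not pass, and 10 of the 14 differences were positive, with a median of 0.20. Cenpc1, which encodes CENP-C, the link from the CENP-A nucleosome to the outer layer, had 6.73, 7.12, 7.02 and 6.90 in the experimental arrays, against 7.62, 7.32, 7.52 and 7.56 in the controls. It fell by 0.56 (SE 0.11, limma adjusted p = 0.0335), with no overlap. Cenpl, the CENP-N partner in the network, had 6.09, 6.64, 6.32 and 6.33 in the experimental arrays, against 7.11, 7.04, 6.87 and 7.12 in the controls. Its difference was -0.69 ± 0.12 (SE, limma adjusted p = 0.0230), or 61.9% of the control level. Without 1 array, Cenpc1 passed only without experimental replicate 2, and Cenpl without experimental replicate 2 or 3 or control replicate 3.

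Cenph, a subunit of the CENP-H/I/K/M group, rose most among the 37 genes at the brightest probe sets. It had 7.70, 8.05, 7.55 and 7.67 in the experimental arrays, against 6.87, 6.52, 6.94 and 6.93 in the controls. The lowest experimental array lay above the highest control, and the difference was 0.93 ± 0.14 (SE, 1.90-fold, limma adjusted p = 0.0116). Cenpo, of the CENP-O/P/Q/U group, had 8.21, 8.17, 8.24 and 8.42 in the experimental arrays, against 7.81, 7.76, 7.87 and 7.66 in the controls. It rose by 0.48 ± 0.09 (SE, 1.40-fold, limma adjusted p = 0.0290), and passed without experimental replicate 2 or control replicate 3 but not when any other array was left out. With its 6 probe sets averaged Cenpo had a difference of 0.16 (limma adjusted p = 0.288), and with sex as a block the call was also lost (adjusted p = 0.0596).

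The partners of these genes within the same groups did not move with them past the threshold. Beside Cenph, Cenpi had -0.31 ± 0.17, Cenpk 0.35 ± 0.20 and Cenpm 0.14 ± 0.18 (log2 difference and SE). Beside Cenpo, Cenpp had 0.06 ± 0.13, Cenpq 0.02 ± 0.09 and Cenpu 0.34 ± 0.12. Beside Cenpl, Cenpn had 0.29 ± 0.12, with a sign opposite to that of Cenpl. Cenpu and Cenpw, which encodes the histone-fold partner of CENP-T, had all experimental arrays above all controls without passing. Cenpw (0.50 ± 0.13) passed with replicate number as a block (adjusted p = 0.0419, against 0.0749 without it). In that fit 9 of the 37 genes fell and 4 rose, where 3.02% of all genes fell and 3.16% rose. Cenpa, the centromeric histone gene, had -0.23 ± 0.10, and Cenpt had 0.26 ± 0.11.

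No core gene of the spindle checkpoint passed. Bub3, which carries BUB1 and BUBR1 to kinetochores, had 11.26, 11.30, 11.08 and 11.07 in the experimental arrays, against 11.69, 11.69, 11.58 and 11.42 in the controls. The groups did not overlap, and the difference of -0.42 ± 0.10 (SE) missed the threshold (limma adjusted p = 0.0634) but passed with replicate number as a block (adjusted p = 0.0409). All 5 probe sets of Bub3 had the experimental arrays below the controls, and 2 of them fell: 1448473_at (-0.53) and 1459104_at (-0.80). The kinase gene Ttk, which encodes MPS1, had -0.38 ± 0.15, and Bub1b, which encodes BUBR1, had -0.14 ± 0.17. Bub1 (0.08 ± 0.17), Mad2l1 (0.17 ± 0.11) and Mad1l1 (0.37 ± 0.24) had positive differences, and all these 5 genes overlapped between the groups. Bub1b and Ttk differed more within replicates 1 and 2 (-0.33 and -0.64) than within replicates 3 and 4 (0.06 and -0.12).

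Of the shugoshins, which protect centromeric cohesion, Sgo1, the mitotic form, fell. It had 8.05, 8.21, 8.38 and 8.06 in the experimental arrays, against 8.83, 8.66, 8.75 and 8.69 in the controls. The difference was -0.56 ± 0.10 (SE, limma adjusted p = 0.0229), or 67.9% of the control level, and a second probe set, 1439510_at, fell by 0.67. At the brighter probe set Sgo1 passed in 2 of the 8 fits without 1 array, without experimental replicate 2 or 3 (adjusted p = 0.0210 to 0.0753). Sgo2a, the form best known from meiosis in mouse, had -0.12 ± 0.12 and overlapped.

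Promoter windows are shown for the genes with the smallest p in each direction, because genes of the cell cycle differ in the short elements near their start sites. RefSeq windows on GRCm38.p6, from 250 bases before to 50 after the start, were found for 34 of the 37 genes. Spc24, Nsl1 and Zwilch were not in the table. Capitals mark CHR-type elements (TTTGAA or TTTAAA), E2F-type elements (TTCCCGC or TTGGCGC or TTGCCGC or TTCGCGC) and CCAAT, each searched on both strands, so that an element on the other strand appears as its reverse complement. The windows lie as follows: Spc25 at chr2:69206164-69206463 (minus strand), Nuf2 at chr1:169531415-169531714 (minus strand), Ndc80 at chr17:71526808-71527107 (minus strand), Cenpf at chr1:189688037-189688336 (minus strand) for genes that fell, and Cenph at chr13:100775850-100776149 (minus strand), Zwint at chr10:72654596-72654895 (plus strand) and Cenpo at chr12:4233916-4234215 (minus strand) for genes that rose. All are written 5′ to 3′ on the strand of the gene.
Spc25: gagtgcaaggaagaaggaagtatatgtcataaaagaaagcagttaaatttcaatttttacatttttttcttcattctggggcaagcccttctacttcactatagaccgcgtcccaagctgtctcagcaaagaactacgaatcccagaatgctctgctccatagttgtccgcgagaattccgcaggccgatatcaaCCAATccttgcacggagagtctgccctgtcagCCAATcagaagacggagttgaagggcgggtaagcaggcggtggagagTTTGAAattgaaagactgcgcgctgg
Nuf2: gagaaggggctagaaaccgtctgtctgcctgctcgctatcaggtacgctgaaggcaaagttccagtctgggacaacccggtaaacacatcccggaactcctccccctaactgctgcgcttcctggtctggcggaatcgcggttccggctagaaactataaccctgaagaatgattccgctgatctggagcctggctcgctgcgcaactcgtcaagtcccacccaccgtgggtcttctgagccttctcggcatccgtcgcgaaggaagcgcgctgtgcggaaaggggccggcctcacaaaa
Ndc80: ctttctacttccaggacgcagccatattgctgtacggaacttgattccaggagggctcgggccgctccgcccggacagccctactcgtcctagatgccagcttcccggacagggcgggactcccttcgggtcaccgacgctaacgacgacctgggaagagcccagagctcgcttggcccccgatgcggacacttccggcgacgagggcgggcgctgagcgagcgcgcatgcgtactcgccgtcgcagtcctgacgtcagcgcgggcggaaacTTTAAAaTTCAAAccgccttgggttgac
Cenpf: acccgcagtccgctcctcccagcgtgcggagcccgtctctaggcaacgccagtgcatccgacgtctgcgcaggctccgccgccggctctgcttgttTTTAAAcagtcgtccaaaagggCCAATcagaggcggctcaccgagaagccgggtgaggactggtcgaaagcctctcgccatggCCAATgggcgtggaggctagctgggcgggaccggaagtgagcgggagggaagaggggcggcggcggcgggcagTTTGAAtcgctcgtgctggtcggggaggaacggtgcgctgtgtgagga
Cenph: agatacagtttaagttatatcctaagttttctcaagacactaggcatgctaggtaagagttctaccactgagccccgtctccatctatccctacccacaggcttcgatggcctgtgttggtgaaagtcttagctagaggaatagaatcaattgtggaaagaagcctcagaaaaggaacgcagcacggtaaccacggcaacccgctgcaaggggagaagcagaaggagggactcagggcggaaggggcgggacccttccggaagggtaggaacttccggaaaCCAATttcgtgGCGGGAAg
Zwint: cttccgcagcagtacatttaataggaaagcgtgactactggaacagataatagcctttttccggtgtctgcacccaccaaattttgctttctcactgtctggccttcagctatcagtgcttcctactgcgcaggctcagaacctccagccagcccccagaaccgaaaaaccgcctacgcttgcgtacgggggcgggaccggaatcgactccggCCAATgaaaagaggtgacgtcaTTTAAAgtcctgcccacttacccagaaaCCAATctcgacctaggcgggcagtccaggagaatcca
Cenpo: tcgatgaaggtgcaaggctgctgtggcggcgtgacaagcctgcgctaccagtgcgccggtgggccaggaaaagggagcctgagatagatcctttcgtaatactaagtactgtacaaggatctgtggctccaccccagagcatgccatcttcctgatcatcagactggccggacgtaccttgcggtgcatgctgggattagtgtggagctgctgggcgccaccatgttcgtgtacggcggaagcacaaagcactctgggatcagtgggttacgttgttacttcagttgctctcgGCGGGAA

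Spc25, Ndc80 and Cenpf held a CHR-type element within the first 35 bases after the start: Spc25 from base 25, Ndc80 from bases 23 and 30, and Cenpf from base 3. Cenpf held a further CHR-type element upstream, from base -154 relative to the start. Spc25 and Cenpf also held CCAAT before the start, at 2 places each. The Nuf2 window held none of the 3 kinds. Cenph and Cenpo each held an E2F-type element, from base 43 and base 44 after the start, on the other strand. Zwint held a CHR-type element from base -15 relative to the start and CCAAT at 2 places, and no E2F-type element.

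Of the 9 genes that fell, 7 had a CHR-type element in the window, 2 an E2F-type element and 6 CCAAT. The genes that rose numbered 3, of which 1 had a CHR-type element, 2 an E2F-type element and 2 CCAAT. Of the 22 other genes with a window, 10 had a CHR-type element, 6 an E2F-type element and 16 CCAAT. Over all 32851 windows of the table, 27.6% held a CHR-type element, 9.57% an E2F-type element and 37.4% CCAAT. These shares are per window, whereas a gene was counted if any of its windows held the element, so the units differ. A match is a run of letters and not a measured binding site, and no binding was measured here.

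The second probe sets of these genes give a check within the same arrays. The 37 genes had 77 probe sets, and 21 genes had more than 1. Of the 40 probe sets not used above, 32 had the sign of the brighter one and 8 the opposite sign. Of these 40, 5 passed, all lower: 1 each of Cenpf, Knl1 and Sgo1 and 2 of Bub3. Of all 45037 probe sets 1.55% fell and 1.03% rose. No second probe set of Zwint or Cenpo passed, and Cenph had only 1 probe set. With replicate number as a block, 4 more of the 40 passed: 1429786_a_at of Zwint (adjusted p = 0.0168, higher), 1452816_at of Cenpu (0.0346, higher), 1458447_at of Cenpf (0.0125, lower) and 1439040_at of Cenpe (0.0420, lower). Zwint had 5 of its 6 other probe sets with a positive difference, the nearest at 0.64 ± 0.15 (limma adjusted p = 0.0545), and Cenpo had 4 of 5. Identifiers ending in _s_at or _x_at, among them those used for Cenpo, Pmf1 and Bub3, mark probe sets that can match transcripts of more than 1 gene.

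The direction of every gene that passed was the same within both styles of sample code in the labels. For all of these genes the groups did not overlap, so this agreement was fixed in advance and checks nothing. Only the sizes of the differences could vary between the styles. Replicates 1 and 2 had codes of a digit and a letter, and replicates 3 and 4 of a letter and a number, and arrays of the same style resembled each other beyond their group. Of the 37 genes, 31 had the same sign in both. Spc25 differed by -1.57 within replicates 1 and 2 and by -1.30 within replicates 3 and 4. Ndc80 had -0.89 and -0.87, Nuf2 -0.83 and -0.77, and Cenpf -1.01 and -0.95. Cenph had 1.18 and 0.67, Zwint 0.67 and 0.62, and Cenpo 0.40 and 0.57. With code style as a block, 10 genes fell and 5 rose, with Bub3 added to the falls and Cenpw and Kntc1 to the rises. Among all genes 3.48% fell and 3.57% rose in that fit.

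**Figure D4:**
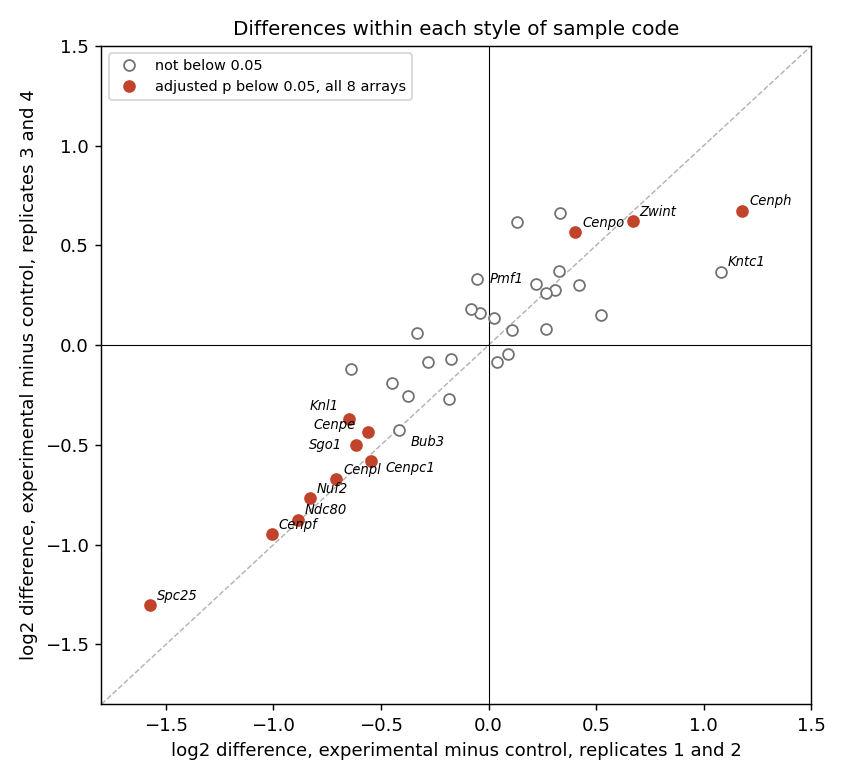
Log2 difference, experimental minus control, of the 37 genes within replicates 1 and 2 (horizontal) and within replicates 3 and 4 (vertical), with equal values on the dashed line. The 12 filled points, which passed over all 8 arrays, lie in the lower left or upper right quadrant. Without overlap between the groups for these genes, they could lie nowhere else. Kntc1 and Cenph differ more within replicates 1 and 2.

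Other genes of the centromere and kinetochore, 37 measured of 40 listed, had 1 fall and 2 rises. The shares over all 18193 genes were 1.95% lower and 1.53% higher, so these few calls say little about the list. Kif2c, a kinesin that removes wrongly attached microtubules, read 8.46 in the experimental arrays and 9.05 in the controls on average (difference -0.59 ± 0.10 SE, limma adjusted p = 0.0177). Cenps, which encodes a histone-fold protein of the network, read 7.85 in the experimental arrays and 7.16 in the controls (0.69 ± 0.11 SE, limma adjusted p = 0.0124). Cenpb, which encodes a binder of centromeric DNA repeats, read 7.37 in the experimental arrays and 6.31 in the controls (1.06 ± 0.23 SE, limma adjusted p = 0.0445). The median of the 37 was -0.12, with 25 negative and 12 positive differences. With replicate number as a block 3 fell and 2 rose, the falls gaining Ska1 and Kif18a, which are named for that change. In that fit 3.02% of all genes were lower and 3.16% higher. The 3 calls became 1 when control replicate 1, 2 or 4 was left out, and 2 when control replicate 3 or experimental replicate 1, 2 or 4 was. As a comparison outside mitosis, the helicase genes Mcm2 to Mcm7 all rose (0.76 to 1.09), and the proliferation marker gene Mki67 fell by 0.80.

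Markers of several cell types, the sorted ones included, and a sign of RNA quality also differed between the groups. The mean level of 6 mature neutrophil markers was 11.06 to 11.38 in the experimental arrays and 11.83 to 12.21 in the controls, and 3 of the 6 fell (Csf3r, Il1b and Clec4d). For 7 B cell markers it was 5.95 to 6.59 in the experimental arrays and 6.81 to 7.85 in the controls, and 3 fell (Cd79a, Cd79b and Ms4a1). For 5 megakaryocyte markers it was 6.04 to 6.18 in the experimental arrays and 6.69 to 7.32 in the controls, and 2 fell (Pf4 and Ppbp). These 3 lists separated the groups without overlap. The mean levels of the NDC80, corona and shugoshin genes did so too, lower in the experimental arrays, and that of the RZZ genes did so upward. Those of the inner kinetochore, MIS12, KNL1 and checkpoint genes overlapped. Sgo2a overlapped on its own, as did Zw10, and no RZZ gene passed. The mean levels of 5 promyelocyte, 5 monocyte, 6 erythroid, 5 T and NK cell and 5 eosinophil, basophil and mast cell markers overlapped, although Ms4a3 and Epx rose. The eosinophil, basophil and mast cell list had 3 negative and 2 positive differences, and Ms4a2 (-0.77) had every experimental array below every control. The T and NK cell list had 2 negative and 3 positive differences, and the megakaryocyte list 4 negative and 1 positive. For monocyte markers 4 were negative and 1 positive, and for erythroid markers 1 was negative and 5 positive. Cx3cr1 of the monocyte list (-1.23) had every experimental array below every control without passing. Cd3g (1.33) and Nkg7 (1.04) of the T and NK cell list had every experimental array above every control, also without passing. All 5 promyelocyte differences were positive. With replicate number as a block, Ebf1 of the B cell list (limma adjusted p = 0.0124) and Itga2b of the megakaryocyte list (0.0357) also fell, and Ctsg of the promyelocyte list (0.0321), Alas2 of the erythroid list (0.0342) and Nkg7 of the T and NK cell list (0.0343) also rose. On the log2 scale of the array no marker is at 0, so absence of a cell type cannot be read. The log2 ratio of 3′ to 5′ actin signal was 0.34 to 0.54 in the experimental arrays and 0.27 to 0.32 in the controls, and the same ratio of Gapdh overlapped. The part of these cells and of RNA quality in the kinetochore differences was not tested.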

How the data were processed

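The deposited values are log2 expression per probe set made by the authors with RMA (background correction, quantile normalization and probe summary), per the submitters' processing notes, which give no version. No source used here says whether the 8 arrays went through RMA as 1 set. Of 45101 probe sets, 64 Affymetrix controls were left out and 45037 tested. The platform annotation gave 1 symbol for 34945 of these, more than 1 for 932 and no symbol for 9160. Symbols were checked by gene identifier against RefSeq GRCm38.p6 (34741 matched, 0 changed). Groups came from the sample titles (4 experimental, 4 control).

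Differences were fitted with limma 3.58.1 in R 4.3.3 (lmFit, eBayes, group as the only term, Benjamini-Hochberg over all tested probe sets), and the code was tested on simulated data. Errors of levels are SDs over 4 arrays, and errors of differences are moderated standard errors. The number of arrays limits the precision.

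The genes, lists and alternatives were chosen with earlier results of these data known. Array values are given for genes past the threshold, for genes with a difference of at least 0.5 and no overlap, and for the gene with the highest mean in a complex with neither. Up to 4 promoters in each direction were printed, by smallest p. Marker genes are named where they passed the threshold, and a few where the groups did not overlap, after their values were seen.

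Same-numbered arrays of both groups deviated together (r = 0.20 to 0.26 in 4 of 4 pairs). Arrays of another number but the same code style correlated at 0.14 to 0.26, and of the other style at -0.27 to -0.13. Within a code style these ranges overlapped, so the correlations do not show whether the numbers, taken from the sample titles, pair the arrays. The main fit used no pairing. Replicate number was a block in an alternative fit, and the blocked value is given where it changed a call. Alternatives were blocks, array scaling, filters on dim probe sets, variance models, array weights, other probe set rules, sex read from Xist and Eif2s3y, and leaving out each array.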

Additional observations from a re-analysis of the deposited data

Results flagged for a closer look

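In 74 groups of 4 values (37 genes in experimental and control arrays), 4 values lay far from the other 3 of their group by Dixon's test, and chance flags about 1 in 20 groups. Experimental replicate 1 was low for Cenpt, at 8.01 against 8.37 to 8.41 in the other experimental arrays, and for Cenpe, at 8.01 against 8.29 to 8.32. Control replicate 2 was low for Cenph, at 6.52 against 6.87 to 6.94 in the other controls, and for Kntc1, at 7.70 against 8.17 to 8.20. Without control replicate 2 Cenph still passed, since it passed in all 8 fits without 1 array (limma adjusted p = 0.0149 to 0.0348). Without 1 array Kntc1 did not pass in any of the 8 fits (adjusted p = 0.0517 to 0.162).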

How the results depend on the processing

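Over 21 alternatives, no difference of the 15 genes with array values changed sign. For all of these genes but Pmf1 the groups did not overlap, so leaving out arrays could not change the sign. Filters on dim probe sets and variance models left the differences as they were. The constant sign is thus largely built in. Of the 315 values of the 15 genes, 227 stayed on the same side of the threshold, 79 lost the call and 9 gained it. Genes lower numbered 9 over all arrays, 0 within replicates 1 and 2, 2 within replicates 3 and 4, 4 with sex as a block (Spc25, Ndc80, Nuf2 and Cenpf; 1 of 4 experimental and 2 of 4 control arrays read as male), and 4 to 8 without 1 array. Genes higher numbered 3 over all arrays, 5 with code style as a block, 0 within either code style, and 1 to 4 without 1 array. The median stayed between -0.06 and 0.06. The other kinetochore genes past the threshold numbered 3 over all arrays, 5 with the replicate block, 7 with code style as a block, 0 within either code style, 5 with probe sets averaged per gene, and 1 to 3 without 1 array. Fits within a code style hold 2 against 2 arrays, and fits without 1 array hold 7. The probe sets past the threshold numbered 1162, with 2277 under the replicate block, 2582 with code style as a block, 663 with sex as a block, 130 within replicates 1 and 2, 418 within replicates 3 and 4, and 395 to 1744 without 1 array; the probe set rules do not bear on this count. With replicate number as a block (replicate block), 9 genes fell and 4 rose: Cenpe lost the call, Bub3 and Cenpw gained it, and no other call among the 37 genes changed at their brightest probe sets. Apart from the limits of 8 arrays, the causes of these changes were not tested.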
